A study of Mus musculus with 18 samples.

Results

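The 10 genes described here, *Gzma*, *Gzmb*, *Prf1*, *Nkg7*, *Klrk1*, *Ncr1*, *Klrb1c*, *Ifng*, *Fasl* and *Eomes*, are genes that natural killer (NK) cells and cytotoxic T cells use to recognise and kill other cells. They were chosen by name from knowledge of these cells, and all 10 were found among the 20878 genes of the matrix. RNA of 18 tumors was sequenced, each grown under the skin of 1 mouse from K7M2, a mouse osteosarcoma cell line derived from a Balb/c mouse. Before grafting, the cells had received a lentivirus carrying either an shRNA control (*ATRXCT*) or an shRNA against ATRX (*ATRXKD*), a chromatin remodeling factor. The hosts were young adult female Balb/c mice, which are immunocompetent and share the strain of the cells, or NSG mice, a NOD strain with the *Prkdc* scid mutation and without the *Il2rg* chain. The groups held 4 *ATRXCT* and 4 *ATRXKD* tumors of Balb/c hosts and 5 *ATRXCT* and 5 *ATRXKD* tumors of NSG hosts. NSG mice make no mature T, B or NK cells but keep myeloid cells. All tumors came from 1 cell line, and as whole cages were assigned to a kind of graft and the cage of each tumor is not given in the sources used here, the cage and the graft cannot be told apart.

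Killer lymphocytes store perforin and granzymes in cytotoxic granules. On contact with a target, perforin lets the granzymes into that cell, where they cleave proteins and start its death, while Fas ligand and interferon gamma act through receptors on the target. NK cells decide by a balance of activating and inhibitory receptors, without a rearranged antigen receptor. Bulk RNA holds all cells of a tumor, so that fewer cells of a type and less RNA per cell cannot be told apart.

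The promoters of *Gzma*, *Gzmb*, *Prf1* and *Ncr1* are shown first, since these 4 genes were highest in the same tumors of Balb/c mice, *Prf1* by a small margin, as described below. Each window runs from 250 bases before to 50 bases after the RefSeq start in build GRCm38.p6, the assembly to which mm10 corresponds, and is written 5′ to 3′. Capitals mark matches to 5 motifs on either strand, which are AGGTGT (T-box factors, the family of *Eomes*), TGTGGT (RUNX), GGAAGT (ETS), GGAAAA (NFAT) and TGANTCA (AP-1).
Gzma (chr13:113100932-113101231, minus strand): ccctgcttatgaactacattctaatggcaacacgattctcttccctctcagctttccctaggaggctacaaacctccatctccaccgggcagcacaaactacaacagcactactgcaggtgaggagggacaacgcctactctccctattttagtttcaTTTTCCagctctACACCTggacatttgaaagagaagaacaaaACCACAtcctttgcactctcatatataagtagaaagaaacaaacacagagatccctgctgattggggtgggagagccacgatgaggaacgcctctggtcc
Gzmb (chr14:56262285-56262584, minus strand): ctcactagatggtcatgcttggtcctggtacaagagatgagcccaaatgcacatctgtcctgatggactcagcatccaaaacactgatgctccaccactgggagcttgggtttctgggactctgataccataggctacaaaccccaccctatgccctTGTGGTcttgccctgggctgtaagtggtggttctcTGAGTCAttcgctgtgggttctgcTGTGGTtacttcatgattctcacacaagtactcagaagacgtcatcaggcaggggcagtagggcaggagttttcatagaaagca
Prf1 (chr10:61297586-61297885, plus strand): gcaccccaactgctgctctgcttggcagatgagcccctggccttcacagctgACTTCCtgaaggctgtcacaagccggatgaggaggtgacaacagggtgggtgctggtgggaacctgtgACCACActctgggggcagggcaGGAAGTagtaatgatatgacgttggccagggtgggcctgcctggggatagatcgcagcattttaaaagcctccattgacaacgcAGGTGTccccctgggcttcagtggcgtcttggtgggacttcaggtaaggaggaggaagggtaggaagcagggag
Ncr1 (chr7:4337465-4337764, plus strand): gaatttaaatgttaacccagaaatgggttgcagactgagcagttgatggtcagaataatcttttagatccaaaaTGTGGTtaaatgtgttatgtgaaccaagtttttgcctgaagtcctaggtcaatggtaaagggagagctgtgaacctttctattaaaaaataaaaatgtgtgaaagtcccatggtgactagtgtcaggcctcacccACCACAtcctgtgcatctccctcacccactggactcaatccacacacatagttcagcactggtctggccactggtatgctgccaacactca
No 2 matches overlapped in these windows. The RUNX letters were in the promoter of 7 of the 10 genes (*Gzma*, *Gzmb*, *Prf1*, *Nkg7*, *Klrk1*, *Ncr1* and *Klrb1c*), and in 16.8% of the 32851 windows of the same length in the table. The other motifs were in 3 of 10 (T-box, 13.7% of all windows), 3 of 10 (ETS, 23.8%), 2 of 10 (NFAT, 23.4%) and 2 of 10 (AP-1, 7.81%). None of the 5 was in the windows of *Ifng* and *Eomes*. A match describes letters only, and no binding was measured.

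Values are FPKM, fragment counts scaled by transcript length and library size, so that levels can be compared between genes as well as between tumors. Between 16108 and 18212 genes were above 0 per tumor, and the depth was estimated at 14750000 to 25300000 fragments per library. Libraries differed in how values changed with transcript length. This is given as a length slope, the change of log2(FPKM + 1) relative to a gene's mean over all tumors for each doubling of transcript length. It ran from -0.122 to 0.211 over the Balb/c tumors. Summed FPKM of 10 keratinocyte markers was 101 in *ATRXCT* mouse 45 and 16.8 in *ATRXKD* mouse 60, against 1.73 to 2.54 in the other 6 Balb/c tumors, and results without both tumors are given where they differ. In NSG mice the sum was 16.3, 11.7 and 19.2 in *ATRXKD* mice 26, 27 and 29, 7.18 and 6.82 in *ATRXCT* mice 4 and 5, and 1.43 to 2.83 in the other 5 tumors. Of 7 osteoblast markers, *Spp1*, *Col1a1* and *Runx2* averaged 1 FPKM or more, while *Ibsp* and *Bglap* were at 0 in most tumors. *Atrx* itself was 17.6 ± 7.12 FPKM in *ATRXCT* and 13.95 ± 6.54 in *ATRXKD* tumors of Balb/c mice (SD, n = 4 each), with a difference of -0.34 on the log2(FPKM + 1) scale (SE 0.36, limma adjusted p = 0.999). In NSG mice it was 17.6 ± 4.99 and 10.2 ± 3.47 (n = 5 each, difference -0.74, SE 0.22, limma adjusted p = 0.0610). The groups overlapped in both hosts. In a step added later, the trend of values with transcript length was removed from each library. In NSG mice log2(FPKM + 1) of *Atrx* was then 3.42 to 3.88 in *ATRXKD* and 3.99 to 4.44 in *ATRXCT* tumors. These groups no longer overlapped, while those of Balb/c mice still did. The paper reports loss of ATRX protein in the grafted cell line by western blot. The knock-down label is used below as given.

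The first comparison was between Balb/c and NSG hosts. These differ in strain as well as in T, B and NK cells, so the parts of these cannot be told apart. In both kinds of graft, the lowest Balb/c tumor was above the highest NSG tumor for each of the 10 genes. The granule genes had the largest differences, and *Klrk1*, the receptor NKG2D, was the 1 gene measured well above background in NSG tumors. With limma on log2(FPKM + 1), a gene was called at an adjusted p under 0.05 and a change of at least 2-fold. In *ATRXCT* tumors 9 of the 10 were called higher in Balb/c hosts, where 0.883% of 14828 tested genes were. In *ATRXKD* tumors 9 of 10 were called higher, against 1.12% of 14669. Groups did not overlap, with Balb/c higher, for 4.72% and 5.08% of tested genes. The genes other than *Klrk1* passed the filter of a mean of 0.1 FPKM through the Balb/c tumors alone, so these counts, and the p-values between hosts given for each gene below, describe the genes and carry no support of their own. Both counts were also 9 without mice 45 and 60. Without the 5 NSG tumors with more keratinocyte RNA, which left 3 *ATRXCT* and 2 *ATRXKD* tumors and was added after the data had been seen, each count was 7. *Klrk1* (1.29, limma adjusted p = 0.0585) and *Klrb1c* (0.99, under 2-fold) were then not called in *ATRXCT* tumors, nor *Gzma* (5.71, limma adjusted p = 0.0517) and *Ncr1* (2.78, adjusted p = 0.110) in *ATRXKD* tumors.

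**Figure D1:**
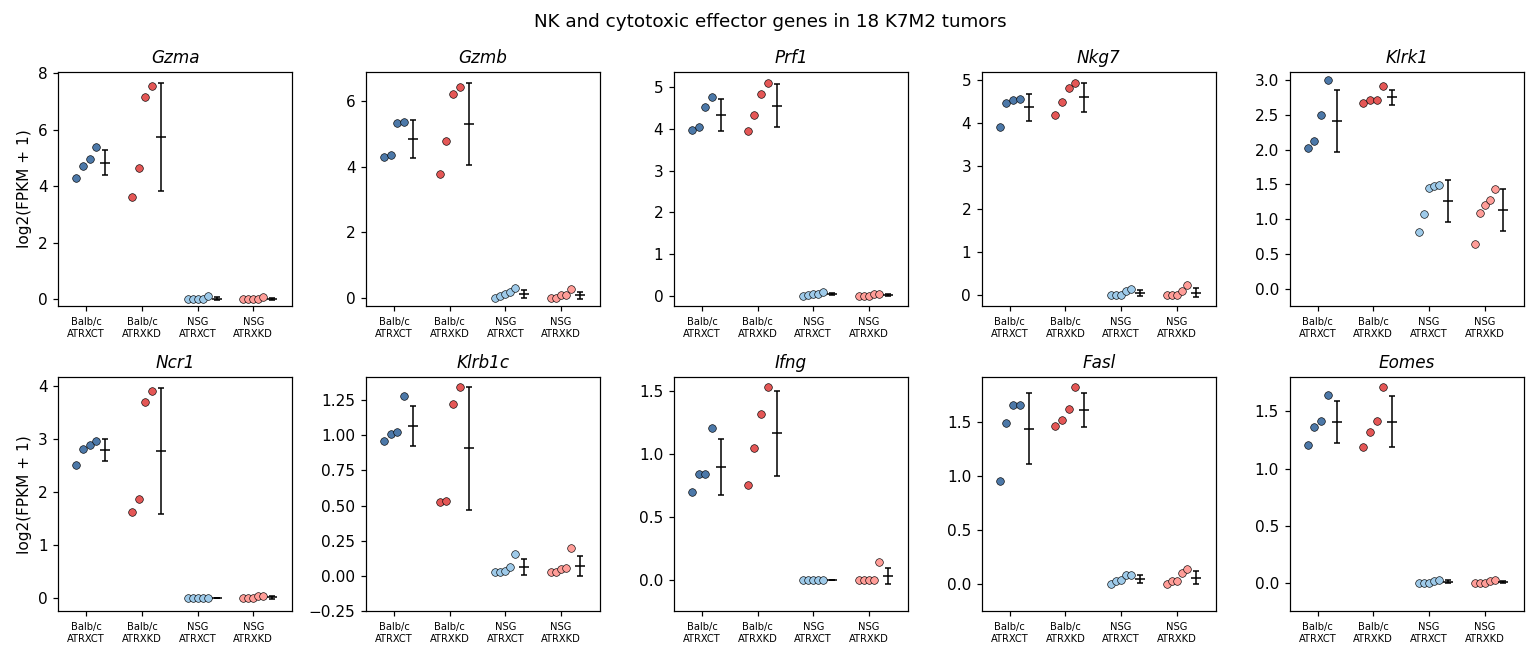
Each panel plots log2(FPKM + 1) of 1 gene in the 18 tumors, with points for tumors and bars for the group mean ± SD (n = 4 per Balb/c group and 5 per NSG group). Balb/c tumors lie above NSG tumors in each panel, and the 2 Balb/c groups overlap.

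*Gzma* encodes granzyme A, a tryptase-like protease of the granule, in 5 exons at chr13:113093827-113100981 (mm10, minus strand). In Balb/c *ATRXCT* tumors of mice 41, 43, 44 and 45 it was 40.8, 18.7, 25.5 and 30.1 FPKM. In *ATRXKD* tumors of mice 56, 58, 59 and 60 it was 11.2, 187, 144 and 24.0 FPKM. The *ATRXKD* group thus held both the lowest and the 2 highest tumors, those of mice 58 and 59 standing far above the other 6. In NSG tumors *Gzma* was listed at 0 in 8 of 10 and reached 0.0707 FPKM in the others, less than the value of 3 fragments. The difference between hosts on the log2(FPKM + 1) scale was 4.82 (SE 0.19, limma adjusted p = 2.05e-07) in *ATRXCT* and 5.73 (SE 0.70, adjusted p = 0.00103) in *ATRXKD* tumors.

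*Gzmb* encodes granzyme B, which cleaves after aspartate and activates caspases, in 5 exons at chr14:56258856-56262260 (minus strand). It was 40.3, 18.8, 39.7 and 19.5 FPKM in the *ATRXCT* tumors in the same order, and 12.6, 85.9, 73.7 and 26.5 FPKM in the *ATRXKD* tumors. Mice 58 and 59 were again highest and mouse 56 lowest. The NSG tumors had at most 0.243 FPKM (*ATRXCT* mouse 1, an estimated 4.50 fragments), and 8 of 10 were at or under 3 fragments. Balb/c exceeded NSG tumors by 4.72 (SE 0.24, limma adjusted p = 1.09e-06) and 5.22 (SE 0.47, adjusted p = 1.02e-04) on the log2(FPKM + 1) scale in the *ATRXCT* and *ATRXKD* grafts.

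*Prf1* encodes perforin, the pore-forming protein, in 3 exons at chr10:61297836-61304263 (plus strand). It was 26.4, 14.9, 22.0 and 15.7 FPKM in the *ATRXCT* tumors and 14.5, 33.7, 27.9 and 19.1 FPKM in the *ATRXKD* tumors. It spanned a narrower range than the granzymes, with the tumors of mice 58 and 59 once more at the top. No NSG tumor had more than 1.92 estimated fragments. The host differences were 4.30 (SE 0.16) and 4.55 (SE 0.21), with limma adjusted p-values of 1.98e-07 and 6.70e-07.

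*Nkg7*, a membrane protein of cytotoxic granules that is needed for their release, has 4 exons at chr7:43437138-43438246 (plus strand). It was the steadiest of the highly expressed members, at 21.3, 22.7, 22.1 and 13.96 FPKM in *ATRXCT* and 17.1, 27.2, 29.5 and 21.4 FPKM in *ATRXKD* tumors. Its lowest value was that of mouse 45, and the other *ATRXCT* tumors were within 21.3 to 22.7. NSG tumors had at most 2.56 estimated fragments. The differences between hosts were 4.32 (SE 0.15) in *ATRXCT* and 4.54 (SE 0.16) in *ATRXKD* tumors, with limma adjusted p-values of 1.32e-07 and 1.60e-07.

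Among the receptors, *Klrk1* (chr6:129610323-129623864, minus strand) differed from the rest. NKG2D, its product, is an activating receptor for stress-induced ligands of the Raet1, H60 and Ulbp1 families. It was 3.07, 4.67, 7.01 and 3.36 FPKM in the Balb/c *ATRXCT* tumors and 5.56, 5.55, 5.37 and 6.53 FPKM in the *ATRXKD* tumors. In NSG tumors it was 1.82, 1.10, 0.760, 1.78 and 1.73 FPKM in *ATRXCT* mice 1 to 5 and 1.30, 0.565, 1.43, 1.71 and 1.13 FPKM in *ATRXKD* mice 26 to 30. These NSG values rested on an estimated 38.5 to 111 fragments per tumor, where no other member exceeded 7.51, and no 75 nt stretch of its transcripts was shared with another gene. The host difference was 1.15 (SE 0.22, limma adjusted p = 0.0177) in *ATRXCT* tumors. It was no longer called without Balb/c mouse 43 (limma adjusted p = 0.0633), without NSG mouse 2 (adjusted p = 0.0522) or without Balb/c mouse 44 (0.96, under 2-fold). In *ATRXKD* tumors it was 1.62 (SE 0.16, limma adjusted p = 1.74e-04).

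*Ncr1* encodes NKp46, an activating receptor that is used to define NK cells, in 7 exons at chr7:4337724-4345164 (plus strand). It was 6.79, 6.08, 6.47 and 4.71 FPKM in *ATRXCT* tumors and 2.09, 14.1, 11.99 and 2.66 FPKM in *ATRXKD* tumors. The 4 *ATRXCT* tumors lay between the low pair and the high pair of *ATRXKD* tumors. NSG *ATRXCT* tumors were all listed at 0, and 2 NSG *ATRXKD* tumors had an estimated 0.929 and 0.908 fragments. The differences between hosts were 2.80 (SE 0.11, limma adjusted p = 1.98e-07) and 2.76 (SE 0.44, adjusted p = 0.00570).

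*Klrb1c* encodes the NK1.1 antigen, which the usual antibody does not detect in Balb/c mice (chr6:128778485-128788641, minus strand). It was lower, at 1.01, 1.03, 1.42 and 0.942 FPKM in *ATRXCT* and 0.448, 1.53, 1.33 and 0.439 FPKM in *ATRXKD* tumors, and 13.2% of its 75 nt stretches are also in another gene model. Among the *ATRXKD* tumors, mice 58 and 59 formed a high pair and mice 56 and 60 a low pair, as for *Ncr1*. Unlike *Ncr1*, *ATRXCT* mouse 44 (1.42 FPKM) was above mouse 59 (1.33 FPKM). Balb/c exceeded NSG by 1.00 (SE 0.085, limma adjusted p = 5.66e-05) in *ATRXCT* tumors, just at the 2-fold limit, and fell under it without Balb/c mouse 44 (0.93) or without NSG mouse 2, 3 or 5 (0.99 each). In *ATRXKD* tumors the difference of 0.83 (SE 0.17, limma adjusted p = 0.0242) was under the limit.

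*Ifng*, the gene of interferon gamma, has 4 exons at chr10:118441046-118445894 (plus strand). It was 0.619, 1.31, 0.792 and 0.794 FPKM in *ATRXCT* and 1.49, 0.689, 1.06 and 1.89 FPKM in *ATRXKD* tumors, from an estimated 13.1 to 38.7 fragments each. Mice 56 and 60, which had the least *Ncr1*, had the most *Ifng*. NSG tumors were at 0 except for 0.104 FPKM in mouse 26, and the host differences were 0.90 (SE 0.10, limma adjusted p = 4.24e-04, under 2-fold) and 1.13 (SE 0.14, adjusted p = 9.89e-04). Of its 75 nt stretches, 16.2% are shared with a second gene model.

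*Fasl* encodes Fas ligand, which triggers death through Fas (chr1:161780691-161788495, minus strand). It was 1.81, 2.16, 2.15 and 0.944 FPKM in *ATRXCT* and 1.77, 2.55, 2.08 and 1.87 FPKM in *ATRXKD* tumors, with mouse 45 lowest as for *Nkg7*. The differences between hosts were 1.39 (SE 0.14) and 1.55 (SE 0.090), with limma adjusted p-values of 1.60e-04 and 3.61e-06. *Eomes*, a T-box factor of NK cells and activated CD8 T cells (6 exons, chr9:118478189-118486132, plus strand), was 1.57, 2.13, 1.67 and 1.31 FPKM in *ATRXCT* and 1.29, 2.28, 1.67 and 1.496 FPKM in *ATRXKD* tumors. The groups of grafts overlapped almost entirely. It differed between hosts by 1.40 (SE 0.093, limma adjusted p = 9.57e-06) and 1.40 (SE 0.10, adjusted p = 1.97e-05).

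With 4 against 5 tumors, an exact two-sided permutation test gave p = 0.0159 for each of the 10 genes in both grafts, the smallest p this design allows. It restates that the groups did not overlap. By median FPKM, the order in Balb/c *ATRXCT* tumors was *Gzmb*, *Gzma*, *Nkg7*, *Prf1*, *Ncr1*, *Klrk1*, *Fasl*, *Eomes*, *Klrb1c* and *Ifng*. In *ATRXKD* tumors *Gzma* came before *Gzmb* and *Ifng* before *Klrb1c*, with the other places as before. Neighbours in this order had overlapping ranges except for the steps from *Prf1* to *Ncr1* and from *Klrk1* to *Fasl*, in both groups.

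**Figure D2:**
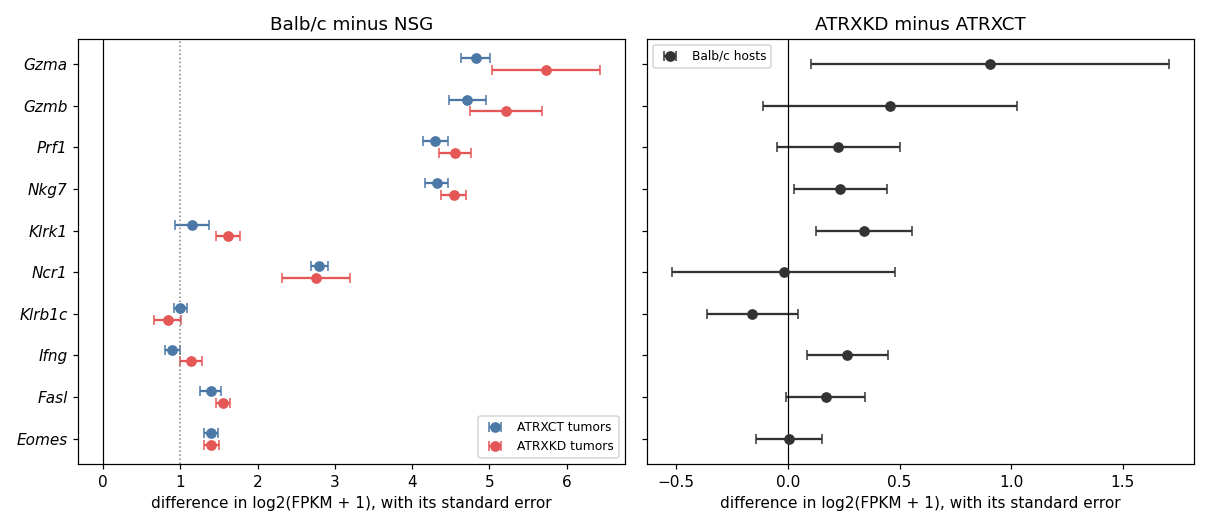
Points give the difference in log2(FPKM + 1) of each gene and bars its limma standard error, between hosts for ATRXCT and ATRXKD tumors (left, the dotted line marks 2-fold) and between ATRXKD and ATRXCT tumors of Balb/c hosts (right). Host differences ran from 0.83 to 5.73, and knock-down differences from -0.16 to 0.90 with wider errors for Gzma, Gzmb and Ncr1.

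The second comparison asked whether knock-down tumors that grew in immunocompetent hosts held other amounts of this RNA. Within Balb/c mice, none of the 10 genes was called between *ATRXKD* and *ATRXCT* tumors, where 0.0068% of 14701 tested genes were. Their limma adjusted p was 0.999 in each case, no gene had an unadjusted p under 0.05, and the lowest exact permutation p was 0.229, for *Klrk1* and *Ifng*. Groups did not overlap for 3.18% of all tested genes and for none of the 10. Differences were above 0 for 8 genes and below it for *Ncr1* (-0.02, SE 0.50) and *Klrb1c* (-0.16, SE 0.20), with a median of 0.23 against -0.0032 over all tested genes. The widest difference was that of *Gzma*, 0.90 (SE 0.80, exact permutation p = 0.400). Leaving out 1 tumor at a time moved it between 0.30 and 1.62. *Gzmb* followed with 0.46 (SE 0.57), *Klrk1* with 0.34 (SE 0.22) and *Ifng* with 0.27 (SE 0.18). With 1 tumor left out these ran from 0.078 to 0.97 for *Gzmb*, 0.21 to 0.53 for *Klrk1* and 0.14 to 0.40 for *Ifng*. With library weights in limma, *Gzma* became 1.89 (adjusted p = 0.308) and *Gzmb* 1.03 (adjusted p = 0.382), and neither was called.

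The spread was uneven between the groups. For *Gzma* the SD of log2(FPKM + 1) was 1.93 in *ATRXKD* and 0.45 in *ATRXCT* tumors. The tumors of mice 58 and 59, with the most *Gzma*, *Gzmb*, *Prf1* and *Ncr1*, also had the lowest *Atrx* of the Balb/c tumors (7.88 and 9.11 FPKM) and length slopes of -0.099 and -0.122. Those of mice 56 and 60 had 21.5 and 17.3 FPKM of *Atrx* and slopes of 0.211 and 0.120. The part of the slope in these differences was not tested beyond the values with the trend removed, in which the SD of *Gzma* was 1.59 and 0.45.

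In NSG mice, *Klrk1* alone passed the filter. It did not pass the test between *ATRXKD* and *ATRXCT* tumors (-0.13, SE 0.17, limma adjusted p = 0.669, exact permutation p = 0.508), where 0.464% of 14654 genes were called. The groups overlapped for each of the 10 in NSG mice, while 7.5% of tested genes had groups that did not. The difference of the knock-down effect between hosts was tested as an interaction, and 0 of 10 genes were called, as were 0.0% of 14803 genes, of which 1527 had an unadjusted p under 0.05. The lowest limma adjusted p of the 10 was 0.606, for *Klrk1* (0.47, SE 0.28), and none had an unadjusted p under 0.05. With library weights in limma the interaction of *Gzma* became 1.92 (adjusted p = 0.0245), the 1 gene of 10 then called, when 195 of all genes were.

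The third comparison was between tumors. Over the 8 Balb/c tumors, log2(FPKM + 1) of each gene was set against that of *Ncr1*, for NK cells, and *Cd8a*, the coreceptor of cytotoxic T cells, in 19 relations with Benjamini-Hochberg adjustment. Both groups of grafts are in these relations, since 4 tumors are too few for a correlation of their own. *Klrb1c* rose with *Ncr1* (Pearson r = 0.92, exact permutation p = 0.00300, adjusted 0.0360; Spearman rho = 0.86, p = 0.0107, adjusted 0.0509). Without the 2 tumors farthest from the median of *Ncr1*, r was 0.86. *Gzma* also rose with *Ncr1* (r = 0.89, exact permutation p = 0.00610, adjusted 0.0360; rho = 0.88, p = 0.00724, adjusted 0.0459; r = 0.75 without the 2 tumors). So did *Gzmb* (r = 0.88, exact permutation p = 0.00590, adjusted 0.0360; rho = 0.90, p = 0.00456, adjusted 0.0434; r = 0.72 without the 2 tumors). For *Prf1* the adjusted p was 0.0660 by Pearson (r = 0.81, exact permutation p = 0.0174) and 0.0434 by Spearman (rho = 0.90, p = 0.00456), and r fell to 0.59 without the 2 tumors.

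Against *Cd8a* the sign was mostly the opposite. *Cd8a* was 2.53, 6.16, 5.44 and 3.16 FPKM in the *ATRXCT* and 5.23, 1.52, 2.78 and 6.87 FPKM in the *ATRXKD* tumors, so that mice 58 and 59 were low. *Gzma* fell with *Cd8a* (r = -0.82, exact permutation p = 0.00759, adjusted 0.0360; rho = -0.81, p = 0.0218, adjusted 0.0827; r = -0.73 without the 2 tumors farthest from the median of *Cd8a*). For 8 of 10 genes r with *Cd8a* was below 0, but this count was not stable. With the length trend removed, as described below, r was above 0 for *Nkg7* (0.30) and *Fasl* (0.14) as well. Without the 2 tumors it was above 0 for *Fasl* (0.39) and *Eomes* (0.35). *Ifng* was an exception with r = 0.76 (exact permutation p = 0.0327, adjusted 0.0930; rho = 0.76, p = 0.0368, adjusted 0.0998), which did not pass the correction, and r = 0.61 without the 2 tumors. With *Ncr1*, *Ifng* had r = -0.67 (exact permutation p = 0.0742, adjusted 0.117; rho = -0.74, p = 0.0458, adjusted 0.109; r = -0.51 without the 2 tumors), which did not pass either. *Klrk1* had r = -0.080 with *Ncr1* and 0.43 with *Cd8a*, with adjusted exact permutation p-values of 0.898 and 0.368.

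**Figure D3:**
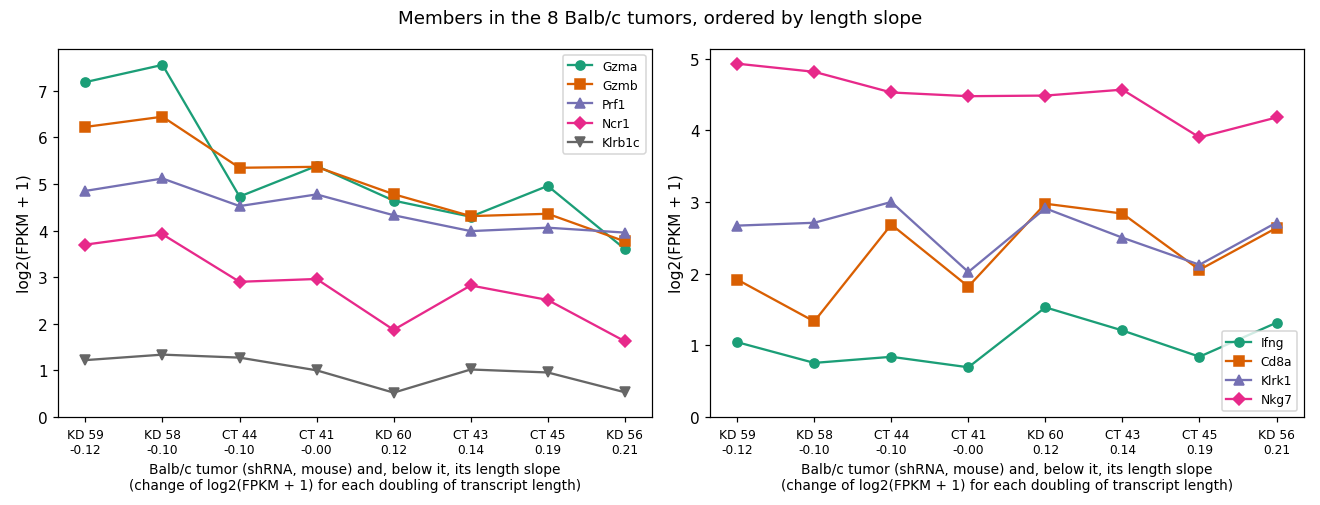
Lines follow log2(FPKM + 1) of members and of Cd8a over the 8 Balb/c tumors, ordered by the length slope of the library, which is printed below each mouse. Gzma, Gzmb, Prf1 and Ncr1 are highest in mice 58 and 59, where Cd8a is at 1.52 and 2.78 FPKM, and Ifng is highest in mice 56 and 60.

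These relations move with the length slope, which was therefore set against the 10 genes in a second family, added after the data had been seen. In 6 of 10 the adjusted p of Pearson's r was under 0.05. The strongest was that of *Gzmb* (r = -0.94, exact permutation p = 9.18e-04, adjusted 0.00918; rho = -0.93, p = 0.00223, adjusted 0.0112; r = -0.92 without the 2 tumors farthest from the median slope). *Prf1* had r = -0.90, *Ncr1* -0.83, *Nkg7* -0.80, *Klrb1c* -0.80 and *Gzma* -0.78. After removal of the trend with length from each library, also added later, r with *Ncr1* was 0.91 for *Klrb1c*, 0.84 for *Gzma* and 0.82 for *Gzmb*, and r of *Gzma* with *Cd8a* was -0.83. That of *Nkg7* with *Ncr1* went from 0.72 to -0.018. After the removal, r with the slope was still -0.91 for *Gzmb*, -0.83 for *Prf1*, -0.78 for *Klrb1c*, -0.74 for *Ncr1* and -0.67 for *Gzma*. For *Nkg7* it was 0.17. The relations of these genes with *Ncr1* after the removal are therefore not free of the slope. What sets the slope was not tested.

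**Figure D4:**
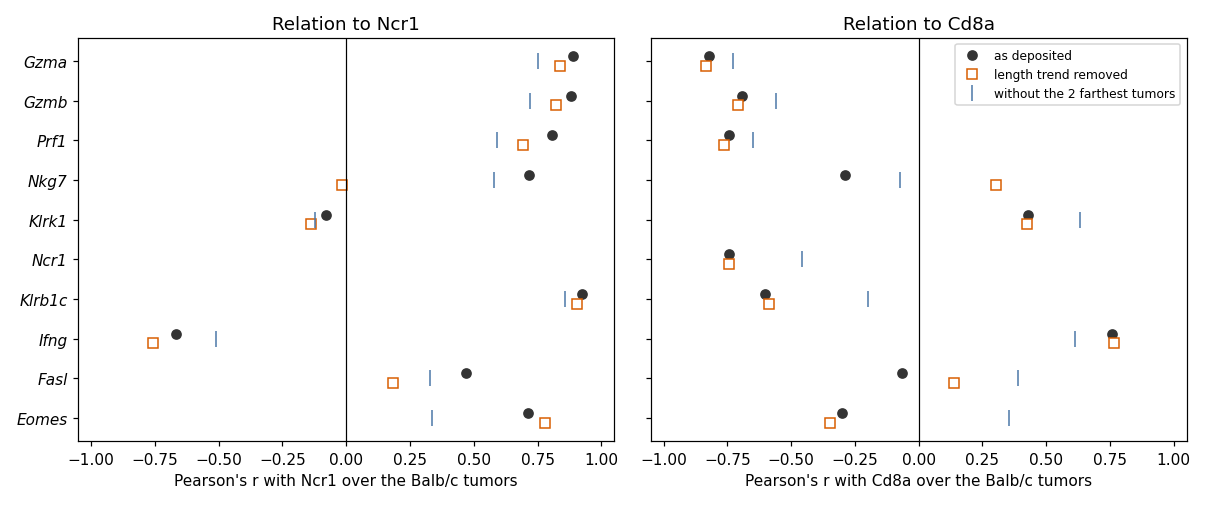
Pearson's r of each gene with Ncr1 (left) and Cd8a (right) over the 8 Balb/c tumors, as deposited (dots), with the trend with transcript length removed (squares) and without the 2 tumors farthest from the median of Ncr1 or Cd8a (ticks). Gzma, Gzmb, Prf1 and Klrb1c lie to the right for Ncr1 and to the left for Cd8a, and Ifng the other way.

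The genes outside the 10 whose pattern was most like the mean z-score of the 10 over these 8 tumors, among 12161 genes that averaged 1 FPKM or more, were *Acot7*, *C1d*, *Gramd3*, *Klra3*, *Cd7*, *Hpf1*, *Med29*, *Tfb2m*, *Polr2k* and *Dnajb1*, with Pearson's r from 0.97 to 0.95. With the length trend removed, 4 of these (*C1d*, *Gramd3*, *Klra3* and *Med29*) were again among the first 10, where r ran from 0.94 to 0.91.

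The other genes of the killing machinery were read from lists, whose counts are set against the shares of all tested genes called higher in Balb/c hosts (0.883% in *ATRXCT* and 1.12% in *ATRXKD* tumors) or lower (0.546% and 0.266%). Listed genes at or near 0 in NSG tumors, such as *Gzmd*, *Gzmf*, *Gzmg* and *Klrg1*, also passed the filter through the Balb/c tumors alone. Counts and medians over the lists are therefore a description. The p-values between hosts of such genes, here and below, likewise describe them and carry no support of their own. Of the other granule contents, 6 of 12 tested genes were called higher in Balb/c hosts in each graft and none lower, with a median of 1.33 in *ATRXCT* and 1.29 in *ATRXKD* tumors against 0.0084 and -0.016 over all genes. The granzymes of the *Gzmb* cluster on chromosome 14 were led by *Gzmf* in host difference, and *Gzmf* exceeded *Gzmb* in each Balb/c tumor. *Gzmf* was 201, 28.6, 178 and 107 FPKM in the *ATRXCT* tumors and 15.4, 241, 212 and 46.7 FPKM in the *ATRXKD* tumors, and above 0 in 1 of 10 NSG tumors, at 0.0643 FPKM. Its host differences were 6.68 (SE 0.46, limma adjusted p = 1.20e-05) and 6.32 (SE 0.68, adjusted p = 3.99e-04). *Gzmd*, at 94.6 ± 63.5 and 98.2 ± 95.1 FPKM, and *Gzmg*, at 85.5 ± 55.6 and 81.0 ± 81.1 FPKM (SD, n = 4), had the same 4 tumors at the top, those of mice 41, 44, 58 and 59. Between 5.73% and 6.83% of the 75 nt stretches of *Gzmd* and *Gzmg* are shared with neighbours, and none of *Gzmf*. For the machinery of granule exocytosis, a process of many cell types, 0 of 6 genes were called in either graft.

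Of the NK receptors and co-receptors, 5 of 21 were called higher in Balb/c hosts in *ATRXCT* and 8 of 21 in *ATRXKD* tumors, and 2 lower in each. *Klrd1*, the CD94 chain that pairs with *Klrc* proteins, was 9.22 ± 3.42 FPKM over the 8 Balb/c tumors and at most 0.498 in an NSG tumor, with host differences of 2.82 and 3.01. *Klrg1*, an inhibitory receptor of mature effector cells, was 6.79 ± 6.39 FPKM in Balb/c *ATRXKD* tumors and listed at 0 in each NSG *ATRXKD* tumor (2.50, SE 0.51, limma adjusted p = 0.0227).

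The 2 lower genes, *Klra8* and *Klra9*, belong to the *Klra* (Ly49) family, whose gene content differs between mouse strains. *Klra8* was listed at 0 in 7 of 8 Balb/c tumors and was 12.2 to 25.8 FPKM in NSG *ATRXCT* and 5.03 to 13.1 FPKM in NSG *ATRXKD* tumors. The host differences were -4.17 (SE 0.19, limma adjusted p = 6.61e-07) and -3.20 (SE 0.20, adjusted p = 7.94e-06). *Klra8* passed the filter through the NSG tumors alone, so these p-values describe it and carry no support of their own. *Klra9* was 10.5 ± 3.35 FPKM in NSG *ATRXCT* and 4.54 ± 1.44 in NSG *ATRXKD* tumors (SD, n = 5). Of 14 listed NK receptors tested between the grafts in NSG mice, it was the 1 called (-1.04, SE 0.22, limma adjusted p = 0.0239). Over all 14654 tested genes, 0.464% were. *Klra8* was close to it, at -0.94 (SE 0.24, limma adjusted p = 0.0401), under 2-fold. Without the 5 NSG tumors with more keratinocyte RNA, 0 of all tested genes were called between these grafts. *Klra10*, outside the lists and named after its values were seen, was 2.19 to 10.9 FPKM in NSG and at most 0.144 in Balb/c tumors. In the same NSG tumors *Ncr1* and *Gzmb* were at 0 to 0.243 FPKM. *Klra2*, also named afterwards, went the other way, with 7.11 to 22.3 FPKM in Balb/c and 1.37 to 5.13 in NSG tumors. Of the 75 nt stretches of *Klra8* and *Klra9*, 19.7% and 12.1% are shared with other *Klra* models. The reads were aligned to mm10, and which members of the family they came from was not tested.

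**Figure D5:**
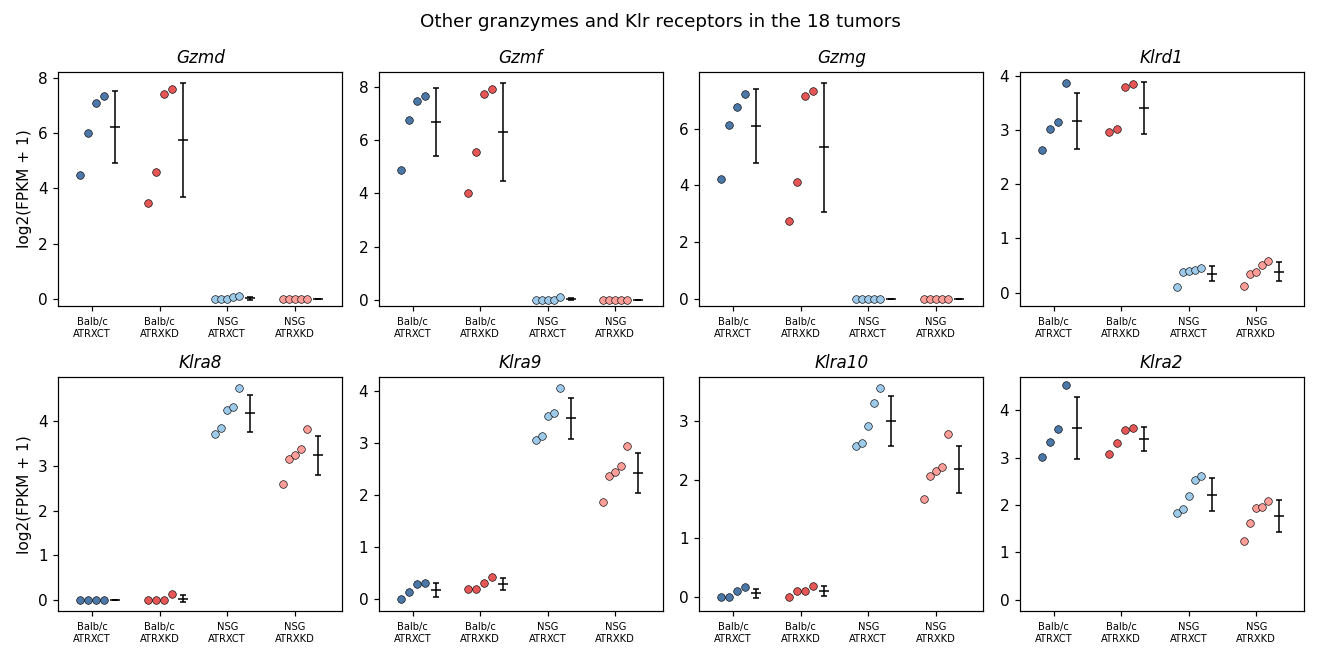
Each panel plots log2(FPKM + 1) of 1 gene in the 18 tumors, with points for tumors and bars for mean ± SD (n = 4 or 5). Gzmd, Gzmf, Gzmg, Klrd1 and Klra2 are higher in Balb/c tumors, whereas Klra8, Klra9 and Klra10 are high in NSG and near 0 in Balb/c tumors.

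Genes that carry or receive the signals of the 10 were read the same way. Of 12 receptor adaptors and kinases, 4 and 6 were called higher in Balb/c hosts in *ATRXCT* and *ATRXKD* tumors, led by *Zap70* (1.79 and 1.81) and *Sh2d1a* (1.78 and 1.92), an adaptor of SLAM receptors. *Hcst*, the DAP10 adaptor that carries the signal of NKG2D, was 11.6 ± 3.78 FPKM in Balb/c and 9.57 ± 2.92 FPKM in NSG *ATRXCT* tumors, a difference of 0.24 (SE 0.24, limma adjusted p = 0.574). In *ATRXKD* tumors it was 13.05 ± 4.66 and 4.84 ± 1.64 FPKM and was called (1.24, SE 0.28, limma adjusted p = 0.0381). Between *ATRXKD* and *ATRXCT* tumors *Hcst* differed by -0.86 in NSG mice (SE 0.22, limma adjusted p = 0.0441, under 2-fold). In Balb/c mice that difference was 0.14 (SE 0.30). Of 11 activating cytokines and receptors, *Il2rb* was called in both grafts (4.09 and 4.15) and *Il18r1* in *ATRXKD* tumors (1.15). *Il2rb* is a receptor chain of interleukins 2 and 15. Of 9 lymphocyte transcription factors, *Tox* was called in both (1.08 and 1.03). *Tbx21*, the T-box factor related to *Eomes*, was 0.849 ± 0.169 FPKM in Balb/c *ATRXCT* tumors and differed between hosts by 0.87 (SE 0.077, limma adjusted p = 7.78e-05), under 2-fold. On the side of the target cell, 0 of 5 ligands of NKG2D and 0 of 10 genes of the death receptor pathway were called, and *Fas* was 18.03 ± 6.48 FPKM over the 8 Balb/c and 25.6 ± 6.55 over the 10 NSG tumors. Of 13 genes of the interferon gamma receptor and its targets, *Cxcl9* was called higher in Balb/c hosts in both grafts (1.92 and 2.66). Between *ATRXKD* and *ATRXCT* tumors of Balb/c mice no gene of these lists was called in limma, where 0.0068% of the 14701 tested genes were. At the looser level of an unadjusted limma p under 0.05, 609 of all tested genes passed, and the lists were not counted at that level.

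T cell markers moved with the 10 genes between hosts. Of 12, 8 and 10 were called higher in Balb/c hosts in *ATRXCT* and *ATRXKD* tumors, against the 0.883% and 1.12% of all tested genes, with *Cd3g* at 3.51 and 3.48, *Lck* at 2.46 and 2.62 and *Cd3e* at 2.42 and 2.55. Their summed FPKM was 33.7 to 59.1 and 31.6 to 57.3 in Balb/c *ATRXCT* and *ATRXKD* tumors and 1.52 to 7.21 and 2.81 to 4.94 in the NSG tumors. As T and NK cells are both missing from NSG mice, which also differ in strain, the part of each in the host differences cannot be told apart. Between the grafts in Balb/c mice, the T cell ranges overlapped as those of the 10 genes did. For other cell types, 0 of 7 macrophage, 0 of 7 plasmacytoid dendritic cell and 0 of 4 tested B cell markers were called between hosts in either graft. Of 7 neutrophil markers, *S100a8* (1.53) and *S100a9* (1.54) were called higher in Balb/c hosts in *ATRXKD* tumors (median of the 7, 0.60). In *ATRXCT* tumors 0 of the 7 were called (median 0.15). Of 7 mast cell genes, *Tpsb2* (1.97) and *Kit* (1.40) were called higher in *ATRXCT* tumors (median 1.54). In *ATRXKD* tumors 0 of these were called, and their median was -0.54. Of 7 endothelial markers, *Pecam1* (1.14) was called higher in *ATRXCT* tumors, and 0 in *ATRXKD* tumors. These counts stand against the same shares of all tested genes. The part of these cell types in the levels of the 10 genes was not tested.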

How the data were processed

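RNA of 18 tumors was analysed, grouped by their labels into 2 hosts and 2 kinds of shRNA. The authors prepared stranded total RNA libraries after ribosomal depletion, aligned reads to mm10 with STAR 2.6.0c and quantified RefSeq genes with Cufflinks 2.2.1. The deposited matrix holds log2 values of FPKM + 1, as the authors made them. Base 2 was settled from the values, since FPKM times transcript length summed to 1.10 to 1.13 times its known total, against 8.45 to 11.2 times for the natural log. The 92 spike-ins (1.39% to 2.93% of a library) were left out.

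The paper's tests used DESeq, which needs counts. Counts were not recovered: depth was estimated from steps between low values, with a fragment of 160 nt and 35.8% to 43.9% of values within 0.1 of a whole fragment (20% by chance). It serves only for approximate fragments and floors of 3, which cover counting error alone.

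Genes were tested with limma 3.58.1 in R 4.3.3 (lmFit, eBayes with trend) on log2(FPKM + 1), a pseudocount of 1, over genes averaging 0.1 FPKM or more in the tumors fitted, with Benjamini-Hochberg adjustment over all of them. Hosts and grafts were fitted in pairs of groups, the interaction over all 4 groups. The 2 host comparisons and the 2 knock-down comparisons share tumors. The steps were checked on data with known changes. Single genes had exact two-sided permutation tests. Python 3.11.15 computed correlations and shared 75 nt windows against GENCODE transcripts (GRCm38). Promoters came from RefSeq (GRCm38.p6), with a window for 10 of 10 genes.

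Genes named beside the 10 were *Atrx*, up to 3 called genes with the largest change per list and comparison, and the 10 most like the mean z-score of the members, apart from those said to be named later. *Hcst*, *Tbx21*, *Fas* and the osteoblast markers are in the lists but were named outside this rule. Not every gene picked by the rule is described. *Cd8a* and *Ncr1* were the chosen references. The members and lists were chosen with earlier results of these data known. Mice are separate animals, so p-values measure the spread between animals of 1 cell line.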

Additional observations from a re-analysis of the deposited data

Results flagged for a closer look

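In each group of 4 or 5 tumors, the gap of the highest or lowest tumor to its neighbour was compared with the range of the group (Dixon's criterion). Of 38 groups checked, 5 had such a tumor. The 1.9 expected at the level of the criterion does not hold where all other tumors of a group are at 0. There any value above 0 is flagged, as for *Gzma* and *Ifng* below, so no excess over chance is read from the count. *Nkg7* in Balb/c *ATRXCT* tumors had a lowest value of 13.96 FPKM in mouse 45, against 21.3 to 22.7 FPKM in the other 3. That tumor also had 101 FPKM of summed keratinocyte markers, and the part of these in the low value was not tested. The other 4 were low values in NSG tumors. *Gzma* was 0.0707 FPKM in *ATRXCT* mouse 4 and 0.0566 FPKM in *ATRXKD* mouse 28, and at 0 in the others, each an estimated single fragment (0.882 and 0.911). In *ATRXKD* mouse 26, *Klrb1c* was 0.147 FPKM, against 0.0192 to 0.0400 in the other 4, and *Ifng* was 0.104 FPKM, against 0, from an estimated 7.51 and 2.25 fragments. That tumor had 16.3 FPKM of summed keratinocyte markers, and their part was not tested.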

How the results depend on the processing

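No paired analysis was possible because the groups share no mouse numbers. The counts of called members were the same in 107 of 108 recomputations under the alternatives, counting as the same a count within 1.5 times. The exception was the interaction with library quality weights (1 gene, *Gzma*, in place of 0). Leaving out 1 tumor gave 7 to 9 called members between hosts in *ATRXCT* tumors, 9 in *ATRXKD* tumors and 0 for the knock-down. Signs turned only for values near 0. For *ATRXKD* minus *ATRXCT* tumors of Balb/c mice, *Ncr1* became 0.64 and *Klrb1c* 0.13 with quality weights. *Eomes* became -0.0022 with quantile normalization. Without mice 45 and 60, *Ncr1* was 0.19 and *Eomes* -0.034. Leaving out 1 tumor gave -0.40 to 0.36 for *Ncr1* and -0.099 to 0.081 for *Eomes*. For the interaction, the same settings gave 0.66 (*Ncr1*) and 0.18 (*Klrb1c*) with quality weights, -0.0061 (*Eomes*) with quantile normalization, and 0.17 (*Ncr1*) and -0.033 (*Eomes*) without both mice. Leaving out 1 tumor gave -0.42 to 0.34 for *Ncr1*, -0.0047 to 0.23 for *Fasl* and -0.098 to 0.082 for *Eomes*. Without the NSG tumors of mice 4, 5, 26, 27 and 29, *Klrk1* was 0.060 between grafts in NSG mice and *Eomes* -0.00025 for the interaction. The cause was not tested.

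Between hosts no sign turned. *Klrb1c* in *ATRXCT* tumors was under 2-fold with median-ratio scaling (0.99), quantile normalization (0.97), quality weights (0.96) and the length trend removed (1.00 after rounding). *Klrk1* was under it with quality weights (0.81). With a pseudocount of 0.1, *Ifng* in *ATRXCT* (3.25) and *Klrb1c* in *ATRXKD* tumors (2.64) were called. Over all genes, calls went from 1 to 15 (knock-down in Balb/c), 68 to 201 (in NSG) and 0 to 195 (interaction) with quality weights, and with a pseudocount of 0.1 from 68 to 226 (in NSG), 212 to 416 (hosts, *ATRXCT*) and 204 to 424 (hosts, *ATRXKD*). With no fold threshold they were 994, 472 and 534, and in NSG mice 0 without the 5 tumors named above. With NSG tumors at a few fragments, depth limits what can be seen there for all members but *Klrk1*.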
